A study of Mus musculus with 67 samples.

Results

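Genes of vesicle trafficking and of the small GTPases that steer it were followed in the cerebral cortex of 67 C57BL/6 mice, 1 array per mouse. They were chosen by symbol alone, as probes (spots) whose single gene symbol begins with Rab, Arf, Arl, Sec or Syt followed by a digit, or with Vps, Snx, Stx, Vamp, Cop (with any next letter other than s), Exoc, Tmed, Trappc or Smap. The rule found 75 genes on 82 probes, among 3905 genes with a single symbol and 8448 spots. There were 16 Rab, 15 Vps, 11 Sec, 7 Snx, 5 Stx, 5 Cop, 4 Tmed, 4 Trappc, 3 Exoc, 2 Arl, 2 Smap and 1 Vamp genes, and no gene beginning with Arf or Syt and a digit. The prefixes take in a few genes of other function. Coprs, which helps the arginine methyltransferase PRMT5 act on histone H4, is no coat protein, and Rab3ip is an exchange factor for Rab GTPases rather than a GTPase. Sec14l2 and Sec14l4 bind lipids, other Sec genes such as Sec63 and Sec11c are no coat genes, and Stxbp6 is a syntaxin-binding protein.

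Mice fed ad libitum (AL) throughout were taken at nominal ages of 1, 6, 16 and 24 months. Those on caloric restriction (CR) had been brought stepwise onto a reduced, fortified ration as young animals and were taken at 6, 16 and 24 months. Each age and diet held 10 mice, 5 of each sex, except 9 CR mice of 6 months (4 males) and 8 CR mice of 24 months (3 males). Ages in days ran from 17 to 44 for the youngest group, whose span takes in pups and weaned mice, and from 673 to 743 for the oldest. At 24 months the AL mice were 704 to 743 days old and the CR females 703 to 743, but all 3 CR males were 673 days old, so among those males diet and age in days cannot be told apart. Total cortical RNA was radiolabelled and hybridised to a cDNA filter, so every value mixes neurons, glia and vessels, and fewer cells of a type and less RNA per cell cannot be told apart.

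In cells, small GTPases of the Rab and Arf families switch between a GTP-bound and a GDP-bound state and recruit coats, tethers and motors to membranes. COPII coats (some of the Sec genes) carry cargo out of the endoplasmic reticulum with p24 cargo receptors (Tmed). COPI coats return it, and TRAPP complexes (Trappc) act as exchange factors on the way. The exocyst (Exoc) tethers vesicles at the plasma membrane, syntaxins and VAMPs fuse them, and Vps proteins and sorting nexins (Snx) sort endosomal cargo to lysosomes or back. Neurons rely on these routes to supply axons and synapses and to recycle synaptic membrane.

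Reference promoters show a sequence feature that the choice by symbol did not use. RefSeq windows of build GRCm38.p6, from 250 bases before to 50 bases after the start of each gene, were given for 58 of the 75 members, and the first listed start was taken where a gene had several. The E-box CACGTG, a palindrome, stood in 9 of the 58 windows (15.5%) and in 7.24% of all 27025 windows. The 10-base stretch found most often around it in member windows was GTCACGTGAC, also a palindrome and known as the CLEAR element of lysosomal gene promoters, in 5 windows (8.62%) against 97 of all windows (0.359%). It was picked because it was the most frequent among members, so its share there is a description. The windows of members had a median GC content of 63.2%, against 52.7% over all windows, and 63.8% of them held the GC box GGGCGG on either strand, against 35.9% of all. A match describes these letters only and was not tested for binding.

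The 5 windows with the long palindrome belong to the early endosomal GTPases Rab5a and Rab21, to Rab24, a GTPase of autophagy, to the retromer subunit Vps26a and to Vps33a, a subunit of the endosome and lysosome tethers. They are shown as 100 bases that hold the element, which is in capitals, to let its flanks be compared. The Rab24 element closes its stretch, so only the bases before it are shown there.
Rab5a (chr17:53479092-53479191, plus strand): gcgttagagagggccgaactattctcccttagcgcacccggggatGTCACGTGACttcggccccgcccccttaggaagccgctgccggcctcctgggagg
Rab21 (chr10:115315582-115315681, minus strand): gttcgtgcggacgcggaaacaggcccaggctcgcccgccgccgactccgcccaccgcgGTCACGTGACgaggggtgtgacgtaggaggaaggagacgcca
Rab24 (chr13:55321971-55322070, minus strand): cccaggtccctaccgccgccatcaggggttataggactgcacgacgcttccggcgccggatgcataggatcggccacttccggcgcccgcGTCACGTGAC
Vps26a (chr10:62486935-62487034, minus strand): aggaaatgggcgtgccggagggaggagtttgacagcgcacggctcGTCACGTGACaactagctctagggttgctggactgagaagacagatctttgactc
Vps33a (chr5:123573006-123573105, minus strand): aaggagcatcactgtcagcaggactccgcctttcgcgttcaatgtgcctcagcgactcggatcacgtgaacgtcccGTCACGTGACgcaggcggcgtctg

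None of these 5 genes had a mean z above 0 on the filters, so none was tested between groups. Their mean z values were -3.59 for Rab5a, -2.27 for Rab21, -2.03 for Vps26a, -0.77 for Rab24 and -0.39 for Vps33a. Of the 17 tested members with a window, 1 held the short E-box and 0 the long palindrome, and of the 41 untested members 8 held the E-box.

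Promoters were also read for the members with the smallest p under caloric restriction at 24 months, described further down. The 150 bases before the start are shown for 4 of them, with GC boxes on either strand in capitals (Coprs had no window).
Smap1 (chr1:23909737-23909886, minus strand): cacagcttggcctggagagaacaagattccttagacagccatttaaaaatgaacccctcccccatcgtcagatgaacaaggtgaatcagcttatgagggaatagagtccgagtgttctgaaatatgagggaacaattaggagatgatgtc
Snx14 (chr9:88438930-88439079, minus strand): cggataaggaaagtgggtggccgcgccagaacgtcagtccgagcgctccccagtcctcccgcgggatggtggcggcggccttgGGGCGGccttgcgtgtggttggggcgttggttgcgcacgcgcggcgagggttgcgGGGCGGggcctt
Exoc7 (chr11:116306735-116306884, minus strand): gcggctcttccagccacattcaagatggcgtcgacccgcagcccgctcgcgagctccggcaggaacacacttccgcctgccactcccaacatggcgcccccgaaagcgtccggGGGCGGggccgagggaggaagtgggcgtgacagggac
Arl1 (chr10:88731264-88731413, plus strand): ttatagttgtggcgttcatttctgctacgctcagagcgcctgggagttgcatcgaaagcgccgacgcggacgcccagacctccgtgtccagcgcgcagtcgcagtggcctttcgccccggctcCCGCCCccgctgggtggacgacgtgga
The Smap1 stretch, from the first of 2 listed starts (the other was not read), had a GC content of 44.7% and 0 GC boxes. Those of Snx14, Exoc7 and Arl1 had 72.7%, 70% and 66%, with 2, 1 and 1 GC boxes.

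The deposited values are z scores, scaled so that the spots of each array have an SD of 1, so differences below are in z and are not folds. Over spots, arrays correlated with each other at a median r of 0.958 (lowest 0.73, highest 0.989). Arrays numbered 46 to 67 (22 arrays) stood apart from arrays 1 to 45 (45 arrays): by limma, 72.4% of features (genes, or spots without a single symbol) and 22 of 26 tested members differed between the 2 array sets at adjusted p < 0.05. Of these members 17 were higher (34.8% of all features were) and 5 lower in the later set (37.6% of all features). Each group of age and diet has mice in both sets, the set is a term of every fit, and values are given within each set. The label text of 1 mouse, replicate 2 of the 24-month AL males, partly names a 1-month mouse. It was kept as a 24-month AL male. For CR at 24 months the count of members, Smap1 and Exoc7 are also given without it, and other comparisons that hold it are not. Precision is limited by how many arrays each group holds.

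Cell markers were read as far as the filter carried them, and these lists do not tell cortex from other brain regions. The neuronal genes Snap25, Stmn3, Uchl1 and Tubb3 had mean z values of 1.07, 1.22, 0.973 and 1.01, all well above 0, and were the 4 measured of 18 listed neuron markers. Other lists were measured in part, and some of their genes were as high. Astrocyte markers (3 of 12) were Aldoc (1.61), Cst3 (0.464) and Glul (0.151). Oligodendrocyte markers (3 of 13) were Car2 (1.52), Fth1 (0.693) and Pdgfra (-1.35). Endothelial markers (3 of 12) were Pecam1 (1.68), Esam (-0.416) and Cdh5 (-0.582). The choroid plexus marker Ttr and the blood marker Hba-a2 had mean z values below 0, and no microglial marker was on the filter.

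Most trafficking genes gave dim spots. The median z of the 75 members over the 67 arrays was -0.172, against -0.0566 over all features. A mean z above 0 was found for 26 members (34.7%), which were tested, against 47.7% of all features. Members all have a single symbol, and among genes with a single symbol the share was 42.4%, so most of those were dim too. A z level depends on the cDNA spotted and its place on the filter as well as on the mRNA, so levels of different genes are listed here as spot values and not ranked as abundance. Arl1 (0.031), Vps26c (0.0524) and Trappc3 (0.0743) passed most narrowly, and Copg1 (-0.0307), Rab17 (-0.0482) and Snx17 (-0.0521) were left out most narrowly.

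Among the GTPases, 3 of 16 Rab genes were tested. Rab3ip, the exchange factor known as Rabin8, had the highest mean z of the Rab prefix, 0.899 ± 0.292 (SD over 67 arrays), followed by Rab18, a GTPase of lipid droplets and endoplasmic reticulum, at 0.355 ± 0.182 and by Rab1b, which acts between endoplasmic reticulum and Golgi, at 0.243 ± 0.145. The close relative Rab1a stood at -0.172, the recycling GTPase Rab11a at -0.644 and Rab8a, a target of Rab3ip, at -0.474. Both Arl genes were tested, with Arl14 at 0.22 ± 0.109 and Arl1, a GTPase of the trans-Golgi, at 0.031 ± 0.186. Smap1, a GTPase-activating protein for Arf6 in clathrin-dependent endocytosis, had a mean of 0.331 ± 0.16, and its paralog Smap2 was below 0 at -0.283.

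On the secretory route, 1 of 11 Sec genes was tested, the COPII cargo adaptor Sec24d, at 0.714 ± 0.162. Other COPII genes lay below 0, with Sec24a at -0.0603, Sec23a at -0.471, and Sec16a, the scaffold of exit sites, lowest at -1.66. Of 5 Cop genes the single one tested was Coprs, at 0.221 ± 0.198, and the 4 COPI coat genes lay below 0, from Copz1 at -0.306 to Copg1. Of the p24 receptors Tmed5, at 0.866 ± 0.166, Tmed2, at 0.239 ± 0.211, and Tmed7, at 0.132 ± 0.373, were tested and Tmed9, at -0.121, was not. Among TRAPP subunits Trappc8, at 0.172 ± 0.152, and the core subunit Trappc3, at 0.0743 ± 0.128, were tested, and Trappc13 was lowest at -1.31.

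At the plasma membrane and endosomes, all 3 Exoc genes were tested, with Exoc1 at 0.488 ± 0.534, Exoc7, the subunit that binds membrane phosphoinositides, at 0.48 ± 0.186, and the exocyst-like Exoc3l4 at 0.16 ± 0.519. Syntaxins ran from Stx8 at -0.695 to Stx4a, a SNARE of the plasma membrane, at 0.563 ± 0.331, with Stx12 and Stx3 also tested. The only VAMP, Vamp4, had a mean of -0.13 ± 0.151. Of 15 Vps genes 6 were tested, namely the ESCRT-II subunit Vps25 (0.767), the GARP subunit Vps51 (0.749), the ESCRT-I subunits Vps28 (0.683) and Vps37a (0.432), the HOPS and CORVET subunit Vps11 (0.673) and the retriever subunit Vps26c (0.0524). Of 7 sorting nexins only Snx14, an endoplasmic reticulum protein whose loss causes cerebellar ataxia, was tested, with the highest mean z of all 75 members, 0.904 ± 0.266, and Snx13, its close relative, was lowest of its prefix at -0.954.

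**Figure D1:**
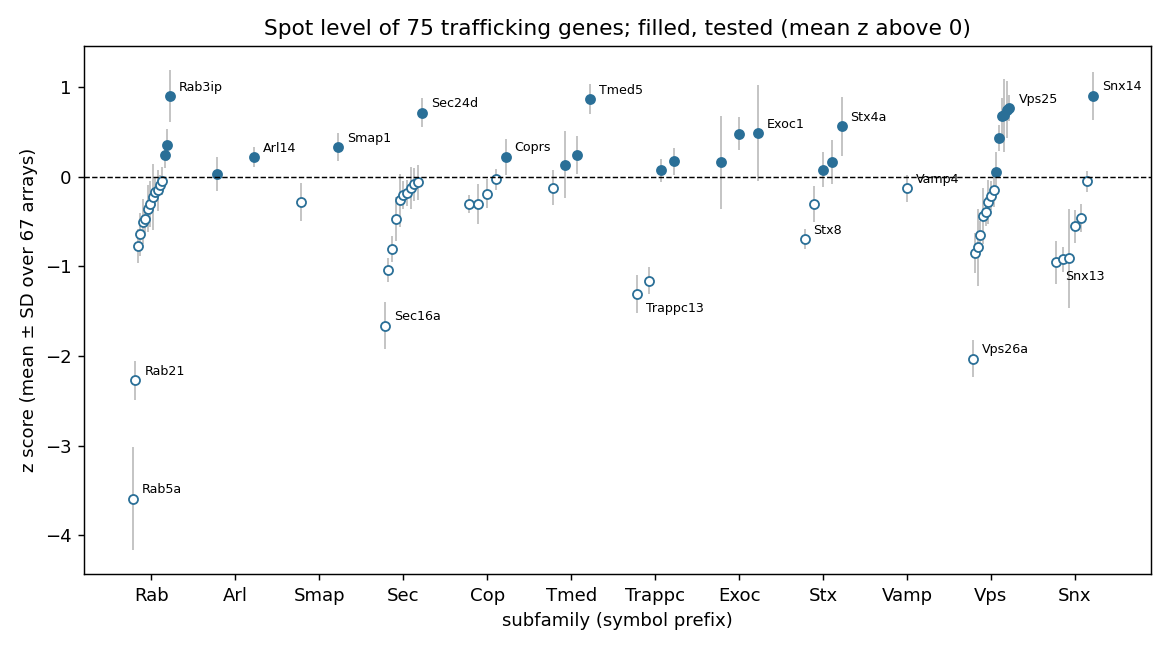
Mean z score of each of the 75 genes over 67 arrays (vertical axis, bars ± SD over arrays) by symbol prefix (horizontal axis), with filled points for the 26 genes tested (mean z above 0) and open points for the others. Rab5a (-3.59), Rab21 (-2.27) and Vps26a (-2.03) are the lowest members, followed by Sec16a (-1.66), and all 3 Exoc genes and both Arl genes lie above 0.

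The level of a spot followed in part the class of its spot number. Spot numbers taken in steps of 22 define 22 classes of 384 spots, whose mean z ran from -1.14 to 0.846. Across the 82 member probes, Pearson's r of a probe's mean z with the mean z of its class was 0.525. For the difference between array sets, r of a probe with its class was 0.833. What the spots of a class have in common was not examined, and no test was made. There were 7 genes with 2 probes, and these often stood far apart. Vps11 had 1.62 on one probe and -0.271 on the other, Rab18 had 1.07 and -0.36, and Copz1 had 0.371 and -0.982. Over the 67 arrays the residuals of the 2 probes of a gene had an r between -0.273 (Vps11) and 0.436 (Vps33a). The 2 probes of Sec63, Stx3 and Rab14 had an r of -0.246, -0.109 and 0.128, so a single probe is a weak guide to another of the same gene.

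**Figure D2:**
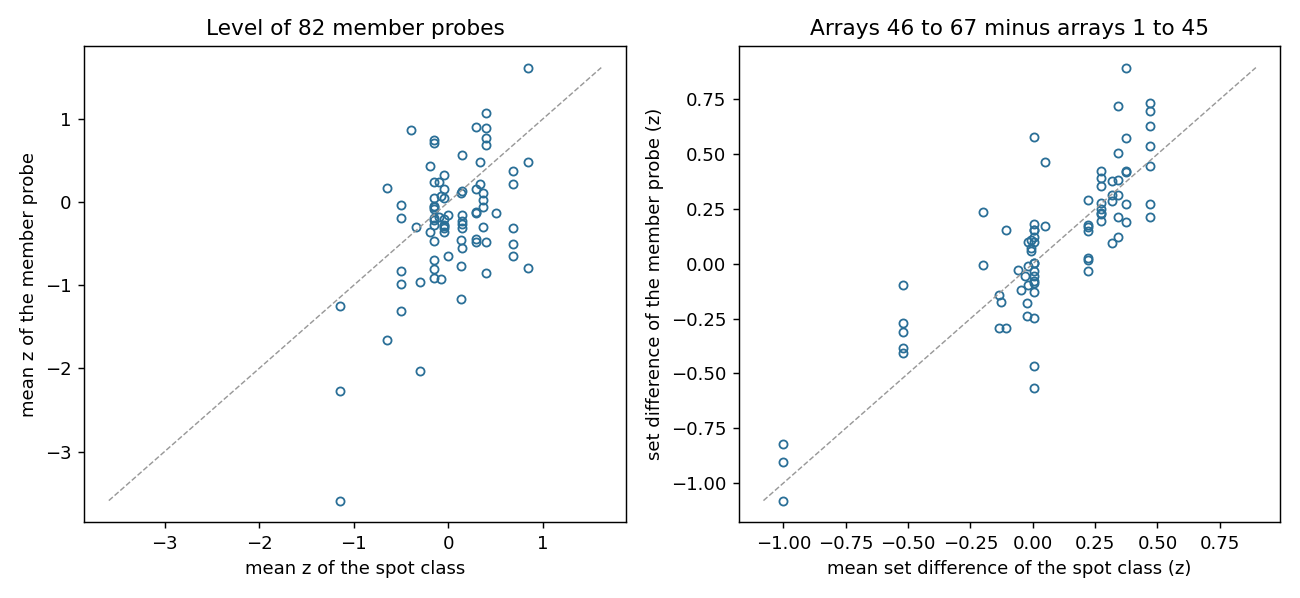
Left, mean z of each of the 82 member probes against the mean z of the 384 spots of its class; right, the difference between arrays 46 to 67 and arrays 1 to 45 of each member probe against the mean difference of its class, both in z, with the dashed line marking equality. The points follow the line more closely on the right (r = 0.833) than on the left (r = 0.525).

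The array sets differed more than the groups of mice did for most members. The median size of this difference over the 26 tested members was 0.317, against 0.0529 for caloric restriction at 24 months. Exoc1 was lower by 1.09 ± 0.0381 (SE) in arrays 46 to 67, while Exoc3l4 was higher by 0.909 ± 0.0747, Tmed7 by 0.743 ± 0.0371 and Vps28 by 0.738 ± 0.0554. Rab1b, Arl14, Tmed5 and Trappc3 did not pass, with differences of 0.0086, -0.0149, -0.0575 and -0.0607. With the set in the fit the median residual SD over features was 0.136, against 0.172 without it.

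The question of caloric restriction was asked at each adult age, and the 24-month mice gave the smallest p-values among members. By limma, 0 of 26 members and 0% of 3609 features passed adjusted p < 0.05. At an unadjusted p under 0.05, 5 members (19.2%) were lower in CR mice and 0 higher, against 3.8% of all features lower and 11.1% in either direction. The members lower in CR were Smap1, Snx14, Exoc7, Coprs and Arl1, of which Coprs is known for histone methylation and not for trafficking. The median difference of the 26 members was -0.0265, or -0.00537 with spot classes centred, and that of all features 0.0163. Of the members 10 (38.5%) were higher and 16 lower, against 56.6% of all features higher. Leaving out each mouse gave 3 to 5 members past the unadjusted threshold, with 3 without CR female 1, CR male 2, CR male 3, AL male 5 or AL female 5 of that age. Without AL male 2, the mouse with the doubtful label text, 4 passed. Females alone gave 3 and males alone 1. The shares of all features with a mouse left out or in 1 sex are not given here. By symbol prefix, 2 of 3 tested Rab and 2 of 3 tested Tmed genes had differences above 0, as had 3 of 6 tested Vps genes. All 3 Exoc genes, both Arl genes and both tested Trappc genes had differences below 0, and all 3 tested syntaxins above 0. Some of these were small, with Exoc1 at -0.0127, Trappc3 at -0.0274 and Stx12 at 0.0206. The median confidence interval of the 26 members reached 0.134 to either side. The Exoc, Arl, Trappc and syntaxin signs stayed the same after quantile normalization and with spot classes centred, which rescale the same arrays. Within the array sets these signs did not all hold. In arrays 46 to 67 Exoc1 was at 0.095, Stx12 at -0.0425 and Stx4a at -0.05, while in arrays 1 to 45 each gene had the sign of the joint fit, with Trappc8 at -0.0125.

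Smap1 had the smallest p of the members. In arrays 1 to 45 the 5 CR mice of 24 months had z values of -0.22, -0.07, 0, 0.19 and 0.26, and the 6 AL mice ran from 0.2 through a median of 0.34 to 0.48. In arrays 46 to 67 the 3 CR mice had 0.37, 0.39 and 0.57, and the 4 AL mice 0.48, 0.48, 0.66 and 0.75. Within each set the CR mice were lower on average and the groups overlapped in a few mice. The difference was -0.254 ± 0.0594 (SE; 95% CI -0.373 to -0.136; limma, adjusted p = 0.0764). Within the sets it was -0.304 and -0.163, so the direction was the same in both.

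That value lay close to the threshold, and single mice moved it across. Leaving out each of the 67 mice in turn gave differences from -0.291 to -0.185 and adjusted p-values from 0.02 to 0.283. Smap1 passed adjusted p < 0.05 without AL male 2 of 24 months, the mouse with the doubtful label text (-0.271, adjusted p = 0.0448), and likewise without AL female 3 (-0.276, 0.034), CR male 3 (-0.291, 0.0494) or CR female 4 (-0.284, 0.02). The difference was smallest, -0.185, without CR male 1, whose -0.22 was the lowest value. That mouse was 1 of the 3 CR males of 673 days. Taken by sex, CR minus AL was -0.238 ± 0.0778 in females (adjusted p = 0.359), where ages in days overlapped, and -0.271 ± 0.0898 in males (adjusted p = 0.979), where they did not.

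The other members of that comparison differed by less. Snx14 in arrays 1 to 45 was 0.24, 0.45, 0.5, 0.83 and 0.84 in CR mice and ran from 0.6 through a median of 0.815 to 1.03 in AL mice, and in arrays 46 to 67 it was 1.14, 1.17 and 1.33 in CR mice and 1.18, 1.23, 1.39 and 1.42 in AL mice. In the earlier set 3 CR mice lay below all 6 AL mice, and in the later set the groups overlapped. Its difference was -0.187 ± 0.0766 (adjusted p = 0.352), with -0.229 and -0.11 within the sets. Single mice moved it from -0.0982, without CR male 1, to -0.247, without CR male 2, with adjusted p from 0.224 to 0.675. Exoc7 averaged 0.21 ± 0.127 (SD, n = 5) in CR and 0.353 ± 0.14 (n = 6) in AL mice of the earlier set, and 0.607 ± 0.125 (n = 3) and 0.77 ± 0.195 (n = 4) in the later set. Its difference was -0.162 ± 0.0698 (adjusted p = 0.389). Single mice moved the Exoc7 difference from -0.122, without AL female 5, to -0.19, without AL male 2. Coprs differed by -0.136 ± 0.0618 (adjusted p = 0.419), with -0.137 and -0.143 within the sets, and Arl1 by -0.118 ± 0.0567 (adjusted p = 0.437), with -0.0808 and -0.178. In the opposite direction the highest difference was that of Rab3ip, 0.115, which was not past the unadjusted threshold.

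**Figure D3:**
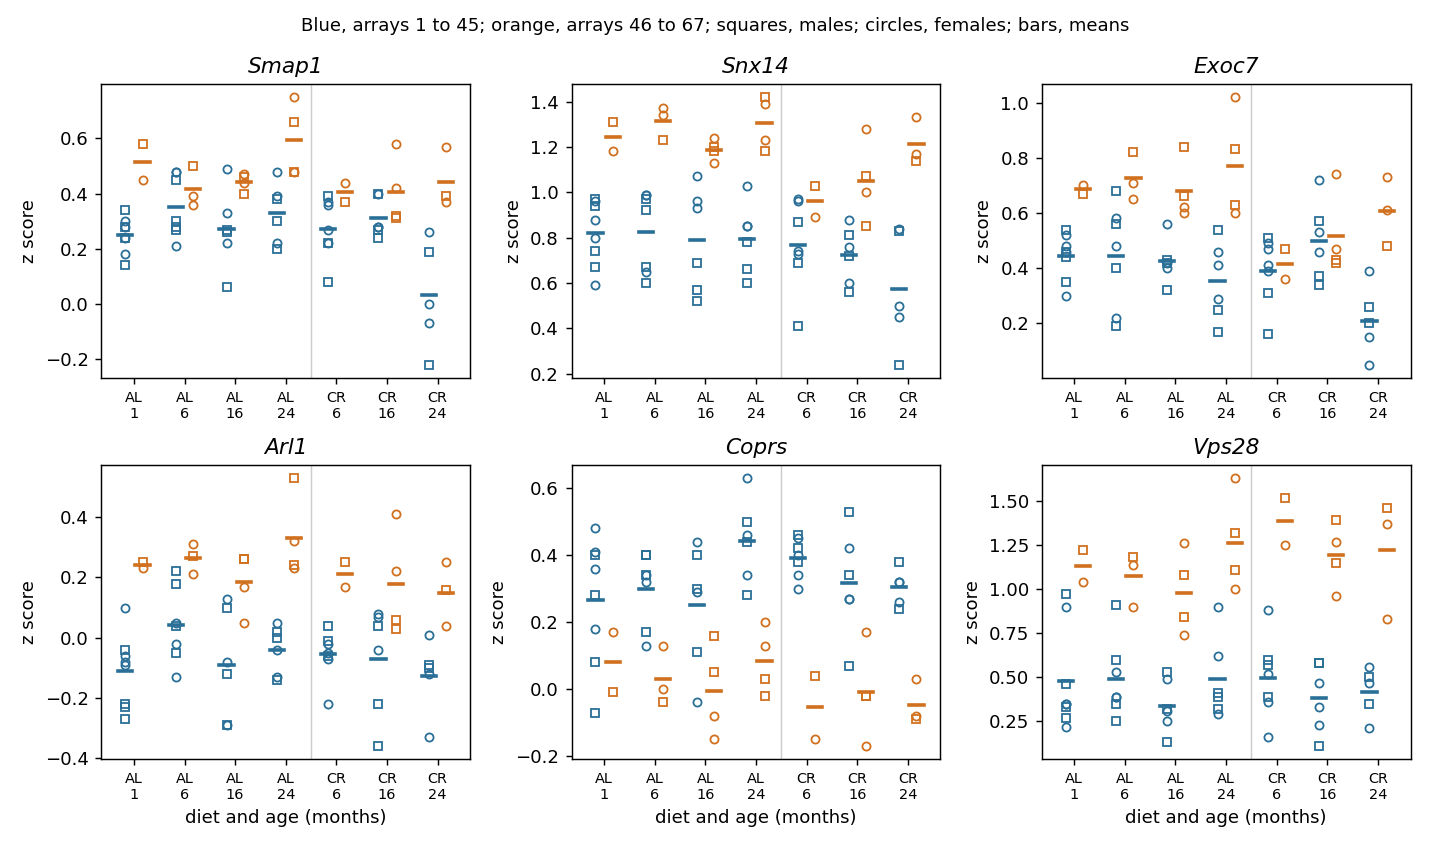
z score of 6 genes in each mouse (vertical axis of each panel) by diet and age in months (horizontal axis), with arrays 1 to 45 in blue, arrays 46 to 67 in orange, males as squares, females as circles and bars at the mean of each set. In CR mice of 24 months the blue values of Smap1 lie between -0.22 and 0.26, mostly under those of AL mice of the same age (0.2 to 0.48), and the 2 colours stand apart for Vps28 and Coprs in opposite directions.

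**Figure D4:**
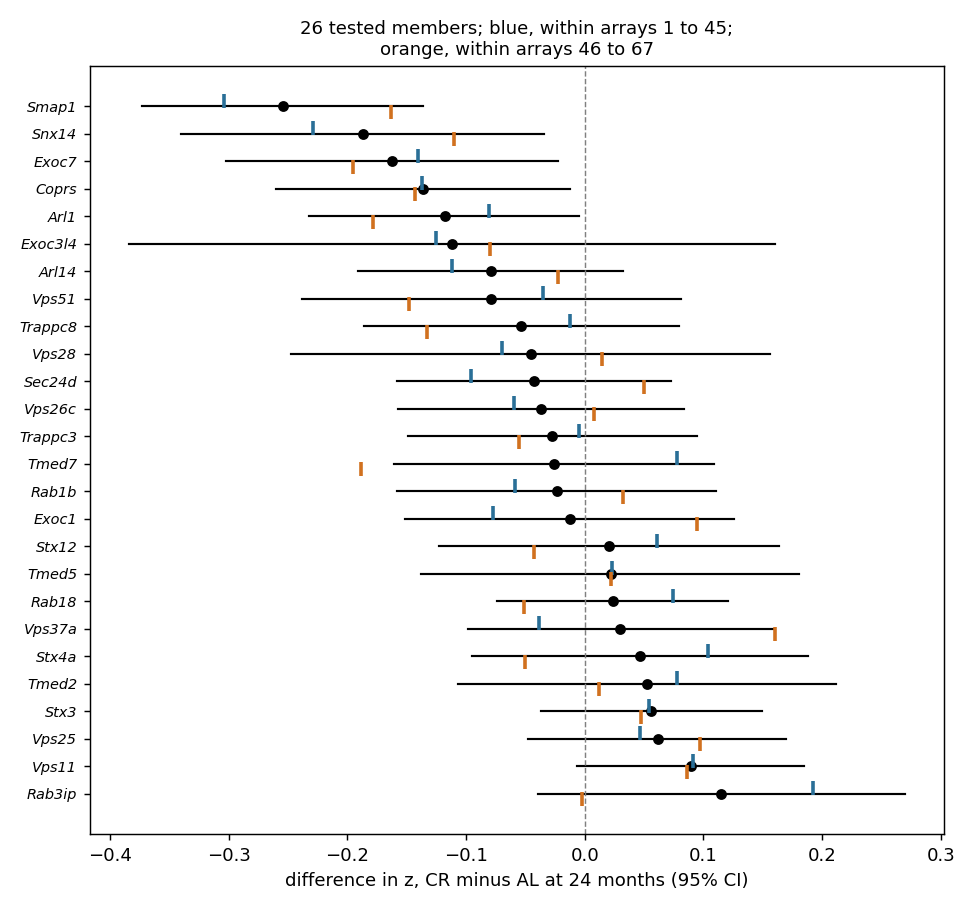
Difference in z between CR and AL mice of 24 months for the 26 tested members (horizontal axis, black points with 95% CI from limma), with blue ticks for arrays 1 to 45 and orange ticks for arrays 46 to 67. Smap1 (-0.254) lies farthest from 0, 5 intervals exclude 0 before adjustment, and the colours fall on opposite sides of 0 for several genes such as Tmed7.

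The same comparison at younger ages gave 0 members past the unadjusted threshold. At 6 months 0 of 26 members passed adjusted p < 0.05 (0% of features) and 0 an unadjusted p under 0.05, against 3.85% of features. Snx14 had the smallest p, with CR minus AL at -0.137 ± 0.0731 (adjusted p = 1) and -0.08 and -0.332 within the sets. Exoc7 was next at -0.118 ± 0.0667, Trappc3 had -0.092 ± 0.0583, Exoc1 0.101 ± 0.0662 and Arl1 -0.0777 ± 0.0542. At 16 months 0 members passed either threshold, against 0% and 1.33% of features. The smallest p-values were those of Snx14 at -0.096 ± 0.0709, Tmed2 at -0.099 ± 0.074, Vps28 at 0.112 ± 0.0934, Trappc3 at -0.066 ± 0.0565 and Trappc8 at -0.071 ± 0.0616, and adjusted p was 1 for each. For Snx14 the CR mice thus had a lower mean at each adult age, and adjusted p was 0.352 or more each time.

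With age in AL mice the question was when over life levels differ. From 1 to 6 months 0 members and 0% of features passed adjusted p < 0.05, and 2 members (7.69%) were higher at 6 months at an unadjusted p under 0.05, against 3.16% of features higher and 4.1% in either direction. Arl1 in arrays 1 to 45 ran from -0.27 through a median of -0.085 to 0.1 in 1-month mice and from -0.13 through 0.04 to 0.22 in 6-month mice, and in the later set it was 0.23 and 0.25 against 0.21, 0.27 and 0.31. The age groups overlapped in both sets. Its difference was 0.12 ± 0.0526 (adjusted p = 1). Trappc3 averaged 0.024 ± 0.112 (SD, n = 10) at 1 month and 0.147 ± 0.101 (n = 10) at 6 months, and its difference was 0.129 ± 0.0566 (adjusted p = 1), with 0.126 and 0.115 within the sets. Exoc1 (-0.108 ± 0.0643), Stx12 (0.0823 ± 0.0667) and Tmed5 (0.0867 ± 0.0739) followed.

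From 6 to 16 months 0 members and 0% of features passed adjusted p < 0.05. Only Arl1 was past the unadjusted threshold, lower at 16 months by -0.118 ± 0.0526 (adjusted p = 1), so 1 of 26 members (3.85%) stood against 2% of features lower and 2.58% in either direction. Its AL means were -0.041 ± 0.183 (SD) at 1 month, 0.108 ± 0.15 at 6 months, 0.019 ± 0.205 at 16 months and 0.108 ± 0.216 at 24 months, each over 10 mice, and neighbouring ages overlapped. The comparisons with 1 and with 16 months share the 6-month mice. Rab18 (0.0817 ± 0.045), Vps28 (-0.143 ± 0.0935), Stx3 (0.058 ± 0.0431) and Exoc3l4 (-0.161 ± 0.126) followed.

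From 16 to 24 months the share of features past the unadjusted threshold was the highest of the 11 comparisons. By limma 0 members and 0% of features passed adjusted p < 0.05, and 2 members (7.69%) were past the unadjusted threshold, both higher at 24 months, against 5.1% of features higher and 15% in either direction. Coprs in arrays 1 to 45 ran from -0.04 through a median of 0.295 to 0.44 at 16 months and from 0.28 through 0.45 to 0.63 at 24 months, and in the later set it was -0.15, -0.08, 0.05 and 0.16 against -0.02, 0.03, 0.13 and 0.2. The ages overlapped in both sets, with the older mice higher on average. Its difference was 0.151 ± 0.0572 (adjusted p = 0.273). Vps28, the ESCRT-I subunit, was 0.74, 0.84, 1.08 and 1.26 at 16 months and 1, 1.11, 1.32 and 1.63 at 24 months in the later set, and its difference was 0.204 ± 0.0934 (adjusted p = 0.302), with 0.15 and 0.285 within the sets. Exoc3l4 (0.242 ± 0.126), Rab1b (0.109 ± 0.0625) and Smap1 (0.094 ± 0.055) followed. The median difference of members was 0.013, turning to -0.0265 with spot classes centred, against -0.019 for all features. The 24-month AL mice are shared with the comparison of diets at that age, so Coprs and Smap1 in both rest on the same 10 mice.

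Across the whole adult span, from 6 to 24 months, 0 members of AL mice passed either threshold, against 0% (adjusted) and 8.12% (unadjusted) of features. Coprs differed by 0.111 ± 0.0573, Exoc1 by 0.107 ± 0.0643, Vps11 by -0.0571 ± 0.0445, Arl14 by 0.0615 ± 0.0517 and Vps25 by -0.0593 ± 0.0505, with adjusted p of at least 0.622. For Exoc1 the value turned with the array set, at 0.269 in arrays 1 to 45 and -0.182 in arrays 46 to 67. In CR mice of the same ages 0 members and 0% of features passed the adjusted threshold and 2 members (7.69%) the unadjusted one, against 3.99% of features. Smap1 had -0.153 ± 0.0611 (adjusted p = 0.993), with -0.243 in arrays 1 to 45 and 0.025 in arrays 46 to 67, so the later set did not share the direction. Rab3ip had 0.172 ± 0.0795 (adjusted p = 0.993), with z values in arrays 1 to 45 of 0.63, 0.78, 0.87, 0.9 and 1.08 at 24 months and from 0.44 through a median of 0.74 to 0.97 at 6 months. Stx4a (0.105 ± 0.0728), Vps51 (-0.112 ± 0.0822) and Coprs (-0.0789 ± 0.0636) followed.

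Whether diet altered the course from 6 to 24 months was asked with an interaction term, the CR difference minus the AL difference. By limma 0 members and 0% of features passed adjusted p < 0.05, and 2 members (7.69%) were lower at an unadjusted p under 0.05, against 2.63% of features lower and 9.78% in either direction. Smap1 had -0.196 ± 0.0821 (95% CI -0.36 to -0.0316; adjusted p = 0.447) and Coprs -0.19 ± 0.0854 (95% CI -0.361 to -0.0194; adjusted p = 0.462). Both kept the direction within each set, at -0.214 and -0.13 for Smap1 and -0.238 and -0.075 for Coprs. Rab3ip (0.182 ± 0.107), Vps51 (-0.174 ± 0.11) and Exoc1 (-0.114 ± 0.0959) followed. The median over members was -0.0296, turning to 0.0243 with spot classes centred, and over all features 0.0306.

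The sexes were compared over the 57 adult mice, 30 females and 27 males. By limma 0 members and 0% of features passed adjusted p < 0.05, and 3 members (11.5%) were higher in females at an unadjusted p under 0.05, against 4.57% of features higher and 8.53% in either direction. Snx14 in arrays 1 to 45 ran from 0.45 through a median of 0.85 to 1.07 in 19 females and from 0.24 through 0.68 to 0.97 in 18 males. In arrays 46 to 67 the 11 females ran from 0.89 through 1.24 to 1.39 and the 9 males from 0.85 through 1.18 to 1.42. The sexes overlapped over most of their range in both sets. Females minus males was 0.134 ± 0.0425 (adjusted p = 0.355), with 0.169 and 0.0467 within the sets. Rab1b differed by 0.0811 ± 0.0375 (adjusted p = 0.549) and Smap1 by 0.0664 ± 0.033 (adjusted p = 0.577), both above 0 within each set. Rab3ip (0.0696 ± 0.0429) and Arl14 (0.0497 ± 0.0309) followed.

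Whether the sexes differed in the change from 6 to 24 months in AL mice was again an interaction, female minus male. By limma 0 members and 0% of features passed adjusted p < 0.05, and 1 member (3.85%) was lower at an unadjusted p under 0.05, against 4.21% of features lower and 6.95% in either direction. That was Exoc1, whose 6-month females had 0.57, 0.81 and 0.92 in arrays 1 to 45 and -0.07 and 0.02 later, and whose 6-month males had 0.52, 0.58, 0.66 and 0.69, and -0.29 later. At 24 months the females had 0.93, 0.94 and 0.94, and -0.73 and -0.13 later, and the males 0.93, 0.93 and 1.08, and -0.31 and -0.19 later. In each group the values of the later set lay below those of arrays 1 to 45. Within arrays 1 to 45 the 6-month values (0.52 to 0.92) lay below the 24-month values (0.93 to 1.08), and in the later set the ages overlapped. The interaction was -0.334 ± 0.129 (adjusted p = 0.609), with -0.198 and -0.445 within the sets. Rab3ip (0.261 ± 0.143), Vps28 (0.314 ± 0.187), Stx4a (0.217 ± 0.131) and Rab18 (0.149 ± 0.0901) followed, with the same adjusted p.

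**Figure D5:**
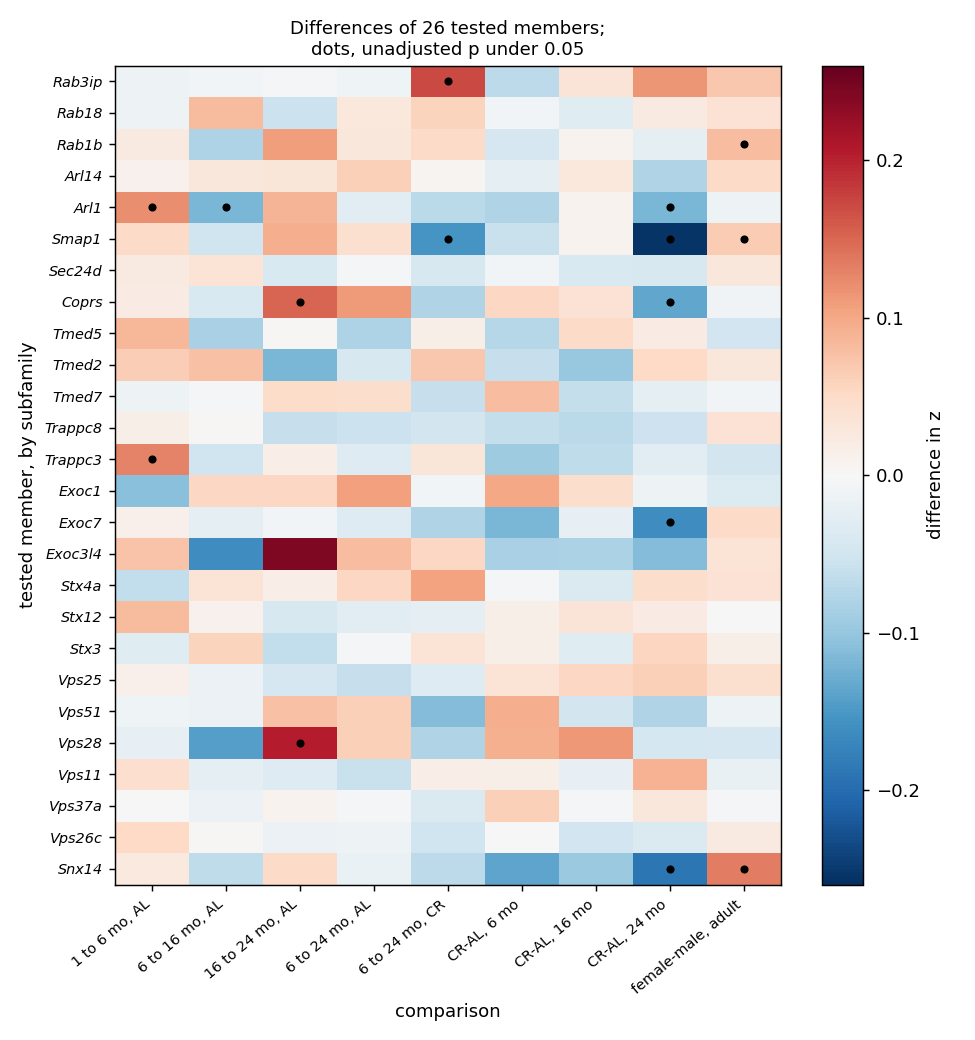
Difference in z (colour) of each of the 26 tested members (rows, by symbol prefix) in 9 comparisons of age, diet and sex (columns), with dots at unadjusted p under 0.05. Dots gather in the column of CR minus AL at 24 months, where 5 members, all lower in CR, carry one, and 0 of the differences passed the adjusted threshold.

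A rule of the published methods, which needs a z ratio of at least 1.5 and unadjusted p-values under 0.05, passed 3 members in the 9 comparisons without interactions. These were Trappc3 from 1 to 6 months (difference of means 0.123, z ratio 1.53), among 1.59% of features, Smap1 under CR at 24 months (-0.248, z ratio -2.53), among 2.25% of features, and Rab1b between the sexes (0.0838, z ratio 1.66), among 2.49% of features.

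Trafficking genes outside the chosen prefixes were read from 6 lists, and 0 of them passed adjusted p < 0.05 in any of the 11 comparisons. Of the SNARE partners 8 of 12 measured genes were tested, of the GTPase regulators 4 of 14, of clathrin, adaptors and dynamins 11 of 18, of ESCRT and endosomal sorting 8 of 11, of COPII partners and Golgi tethers 4 of 20, and of other synaptic vesicle proteins 4 of 9. Under CR at 24 months each list had 1 gene at an unadjusted p under 0.05 (limma), except COPII partners and Golgi tethers with 0, against 11.1% of all features. These were Stam2, an ESCRT-0 subunit, at -0.204 ± 0.0586 (adjusted p = 0.181), and Arfgap3, a GTPase-activating protein of Golgi Arf, at -0.135 ± 0.0564 (adjusted p = 0.375). The others were the AP-1 subunit Ap1m2 at -0.118 ± 0.049 (adjusted p = 0.37), the Golgi SNARE Gosr2 at -0.119 ± 0.056 and Atp6v1b2, a subunit of the proton pump of synaptic vesicles, at 0.129 ± 0.0605. Of the further AP-1 subunits, Ap1g1 was at 0.101 and Ap1s1 at -0.0843. The interaction of age and diet for Stam2 was -0.249 ± 0.0811 (adjusted p = 0.328). From 16 to 24 months in AL mice the AP-1 subunits went both ways, with Ap1g1 at -0.139 ± 0.0512 and Ap1s1 at 0.124 ± 0.0514, the ALIX gene Pdcd6ip had 0.111 ± 0.0426, and Nsf, the ATPase that takes SNARE complexes apart, -0.121 ± 0.0519, with adjusted p from 0.251 to 0.281. Snap23, a plasma membrane SNARE, had 0.129 ± 0.0485 from 1 to 6 months and -0.156 ± 0.05 under CR at 6 months (adjusted p = 1 for both).

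Neuron markers varied in the same comparisons. Under CR at 24 months 3 of the 4 were higher, against 56.6% of all features. Their median difference was 0.0753 (0.0163 over all features), with Stmn3 at 0.186 ± 0.0819 (limma, adjusted p = 0.402) and Tubb3 at -0.0419. From 16 to 24 months in AL mice 1 of the 4 was higher and 3 lower, against 41.7% of all features higher. The median there was -0.122, against -0.019 over all features. With 4 genes such counts stay close to those shares. The mean of the 4 ran from 0.542 to 1.15 over the AL mice of 24 months and from 0.98 to 1.16 over the CR mice. Under CR at 24 months the 3 astrocyte markers did not move alike. Glul differed by -0.146 ± 0.0576 (limma, adjusted p = 0.331), Cst3 by -0.0687 and Aldoc by 0.0046. The mean of the list ran from 0.657 to 0.953 in AL and 0.64 to 0.87 in CR mice. The oligodendrocyte markers Fth1 and Car2 differed by -0.104 and 0.0466, and the endothelial marker Pecam1 by 0.0866. The part of these cell markers in the differences of Smap1, Snx14, Exoc7, Coprs and Arl1 was not tested.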

How the data were processed

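The authors radiolabelled cortical RNA (the labels and the methods name different phosphorus isotopes), hybridised it to 1 of a pair of mouse cDNA filters, read spot intensities and deposited a z score for each of 8448 spots per array; the unit of the deposited values is therefore a score, and whether intensities were logged first is not given in the sources used here. Symbols came from the platform annotation (4788 spots with 1 symbol, 212 with several, 3448 with none). Probes of a gene were averaged, which gave 7565 features, and the 3609 with a mean z above 0 were tested. Limma 3.58.1 in R 4.3.3 fitted 14 group means (age, diet, sex) and a term for the array set, sexes weighted equally, with two-sided tests and Benjamini-Hochberg adjustment over all 3609 features (threshold 0.05). P-values measure the spread between mice, 1 array each. Scripts were tested on simulated data. Alternatives were no set term, 5 rounds of the array number as a block, each set alone, other filters and probe rules, quantile normalization, a trended robust prior, array weights, adult arrays only, the published z-ratio rule, centred spot classes and each sex alone at 24 months (both added after seeing the data) and leaving out each array. Members and lists were chosen with earlier results of these data known. Genes named are, per comparison, the 5 members with the smallest p where fewer than 5 passed, the highest and lowest of each prefix, those past the z-ratio rule, a set of well-known members, and up to 2 genes per further list and comparison. Figures used Python 3.11.15 and matplotlib 3.10.9.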

Additional observations from a re-analysis of the deposited data

Results flagged for a closer look

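One value was flagged as apart from its group. Among 56 groups of mice examined (8 genes in 7 groups of age and diet), the z of Smap1 in CR female 5 of 16 months was 0.58, with the next of the 10 mice at 0.42, a gap of 0.471 of the whole range, above Dixon's critical value at the 95% level. At that level chance gives about 2.8 flags in 56 checks where the mice of a group form a single spread. The mouse was on array 62, in the later array set, where Smap1 was higher by 0.196 ± 0.0326 (SE). Both array sets were pooled here, so neither the flag nor the 2.8 allows for that difference.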

How the results depend on the processing

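Counts of members past adjusted p < 0.05 were 0 in all comparisons run under 13 of the 15 other settings (the adult arrays alone leave out 1 month, and each sex alone was run under CR at 24 months only). Quantile normalization passed 1 member under CR at 24 months (Smap1, -0.266, adjusted p = 0.0484), and the unadjusted z-ratio rule, not run for the 2 interactions, passed 1 each from 1 to 6 months, under CR at 24 months and between the sexes. Leaving out each mouse gave 0 to 1 members under CR at 24 months. Array weights brought Smap1 there to -0.166 (adjusted p = 0.316), a change of over 1.5 times. The median of members for the age by sex interaction was 0.115 in arrays 1 to 45, 0.124 in arrays 46 to 67 and 0.00627 with spot classes centred, and that setting gave 0.0243 for age by diet. Of 55 named differences, these changed sign, and the cause was not tested: Exoc1 from 6 to 24 months in AL mice (-0.002 without the set term, -0.002 with rounds, -0.182 in arrays 46 to 67), and in arrays 46 to 67 also Exoc1 from 1 to 6 months (0.128), under CR at 6 months (-0.113) and for age by diet (0.208), and Smap1 (0.025) and Stx4a (-0.0625) from 6 to 24 months in CR mice. In arrays 1 to 45 Vps11 from 6 to 24 months (0.00792) and Trappc3 under CR at 16 months (0.0233) did so, and with only probes above 0 Rab18 from 6 to 16 months (-0.0129). The labels give no replicate numbers that pair mice. The 5 rounds of the array number, each with at most 1 mouse of a group, were fitted as a replicate block instead. With this block Smap1 under CR at 24 months was -0.247 (limma, adjusted p = 0.227). Its adjusted p was 0.581 without the set term, 0.943 within arrays 1 to 45 and 0.163 with adult arrays only. Nearer the threshold, it was 0.0566 with spot classes centred, 0.0746 with the trended robust prior, 0.0846 with only probes above 0 and 0.1 with no filter on dim features. The 5 of 26 members past an unadjusted p under 0.05 in that comparison (19.2%, against 11.1% of features) became 3 with the block and 1 without the set term. They became 2 and 0 within the array sets, 3 in females, 1 in males, and 11 of 75 with dim members tested too. In the other 10 comparisons leaving out a mouse gave 0 to 4. The shares of all features under these settings are not given here, so these counts are not set against them. The 49 dim members, among them Rab5a, Rab11a, Vps26a and the COPI coat, gave no test, and a median 95% CI of 0.134 to either side at 24 months bounds what 18 mice can show.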
